A study of Mus musculus with 35 samples.

Results

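The genes described here are 10 scavenger and mannose receptors of liver macrophages: Marco, Cd163, Colec12, Mrc1, Cd5l, Scarb1, Msr1, Stab1, Cxcl16 and Lyve1. They were listed by symbol and looked up among the 54735 gene symbols of the count files. All 10 were found, and all 10 belong to the 13421 genes with over 1 CPM (counts scaled to 1e+06 per sample) in at least 5 samples, the genes that were tested. Each of them was over 1 CPM in each of the 35 samples, and the lowest count of any of them in any sample was 32, for Colec12 in a moKC sample. They lie on 10 different chromosomes.

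Macrophages were sorted from mouse liver, and their RNA was sequenced in bulk. The mice were male C57Bl/6J animals that ate a standard diet (SD) or a Western diet (WD) from 5 weeks of age, for 12 or 24 weeks; the WD was high in fat and cholesterol, with sugar in the drinking water. Resident Kupffer cells (ResKCs) were sorted as cells with CLEC4F and TIM4 on their surface, monocyte-derived Kupffer cells (moKCs) as cells with CLEC4F and without TIM4, and CLEC4F- macrophages (CLEC4F- macs) as macrophages without CLEC4F. The 6 groups were ResKCs after 12 weeks on the SD (7 samples) and on the WD (5 samples), ResKCs after 24 weeks on the SD (6 samples) and on the WD (6 samples), and moKCs (5 samples) and CLEC4F- macs (6 samples) after 24 weeks on the WD. For the WD samples taken at 12 weeks a label field gives the standard diet where title and description give the WD; the latter was followed. The moKCs and CLEC4F- macs have no SD samples, so that no diet effect can be had for them, and the gates define a population by surface protein and not by the origin of each cell.

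The total count per sample lay between 11568590 and 15163845, at which 3 counts correspond to 0.198 to 0.259 CPM. Values in CPM are scaled with TMM factors, which correct for differences in composition between samples. The headers of the count files name the alignments in 2 ways, a first naming scheme in 22 samples and a second in 13. The sources do not say what the schemes stand for. The SD samples at 24 weeks and the WD samples at 12 weeks all carry the first scheme, whereas the 3 populations on the WD at 24 weeks hold both.

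The RNA of the sorted cells was checked against the genes of the sort gate. Clec4f, which encodes a lectin of Kupffer cells, stood at 12620 ± 1579 CPM (mean ± SD, n = 6) in WD ResKCs at 24 weeks, at 9844 ± 1906 CPM (n = 5) in moKCs and at 1718 ± 1893 CPM (n = 6) in CLEC4F- macs. Timd4, which encodes TIM4, stood at 732 ± 116 CPM, 12.47 ± 11.5 CPM and 8.24 ± 4.01 CPM in the same order. In moKCs its mean was thus 1.7% of the ResKC mean, though the moKC samples ran from 2.85 CPM to 30.3 CPM in replicate 4, the highest. Replicate 4 of the CLEC4F- macs stood apart: the summed level of 10 Kupffer cell genes, of which Clec4f was the most abundant, was 7909 CPM in it and 1948, 2324, 3222, 3315 and 3614 CPM in the other samples of its group. The summed level of 6 monocyte genes, of which Ccr2 was the most abundant, was 364 CPM in it and 659 to 1439 CPM in the others.

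Scavenger receptors are surface proteins of several unrelated families that bind modified lipoproteins, microbial surfaces, haemoglobin and other spent or foreign material and carry it into the cell. In the liver, Kupffer cells and the endothelium of the sinusoids do much of this clearance from portal blood. Of the 10 genes, Marco, Msr1 and Colec12 encode collagen-like class A receptors, Cd163 the receptor for haptoglobin bound to haemoglobin, Scarb1 the receptor for high-density lipoprotein, Mrc1 the mannose receptor, Stab1 stabilin-1, Cxcl16 a membrane-bound chemokine that also binds oxidised lipoprotein, Lyve1 a hyaluronan receptor, and Cd5l a secreted protein with scavenger receptor domains.

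Together the 10 genes took 1.65 ± 0.127% of all counts (mean ± SD, n = 6) in WD ResKCs at 24 weeks and 1.57 ± 0.0903% (n = 6) in SD ResKCs of that time. In moKCs they took 1.17 ± 0.157% (n = 5), and in CLEC4F- macs 0.574 ± 0.229% (n = 6). To set the genes beside each other, levels were divided by exon length. On that scale Cd5l had the highest level of the 10 in each group, with 5115 ± 383 CPM per kilobase (kb) of exon in WD ResKCs at 24 weeks, where it ranked 6 among 13387 genes with a known length. Marco followed at 645 ± 348 CPM per kb, then Cd163 at 273 ± 79.9 and Mrc1 at 221 ± 22 CPM per kb. The ranges of these 3 overlap between neighbours. Next came Msr1 at 132 ± 8.13, Cxcl16 at 107 ± 17.4 and Scarb1 at 59.1 ± 4.77 CPM per kb, of which Msr1 and Cxcl16 overlap while Scarb1 lay under every sample of Cxcl16. Colec12 at 21.0 ± 9.26, Stab1 at 14.01 ± 1.58 and Lyve1 at 8.43 ± 3.12 CPM per kb were the lowest, and their ranges overlap.

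In moKCs the order of levels per kb differed at the top. Cd5l still led at 4031 ± 790 CPM per kb (mean ± SD, n = 5), but Mrc1, Msr1, Cxcl16, Scarb1 and Stab1 came next, ahead of Cd163 at 12.6 ± 6.35 and Marco at 11.6 ± 9.40 CPM per kb. In CLEC4F- macs Cd5l stood at 1506 ± 974 CPM per kb (n = 6), followed by Cxcl16 at 150 ± 12.1, Msr1 at 103 ± 20.3 and Mrc1 at 82.0 ± 29.7 CPM per kb. Cd163 at 2.56 ± 1.38 and Colec12 at 0.649 ± 0.362 CPM per kb closed that order.

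**Figure D1:**
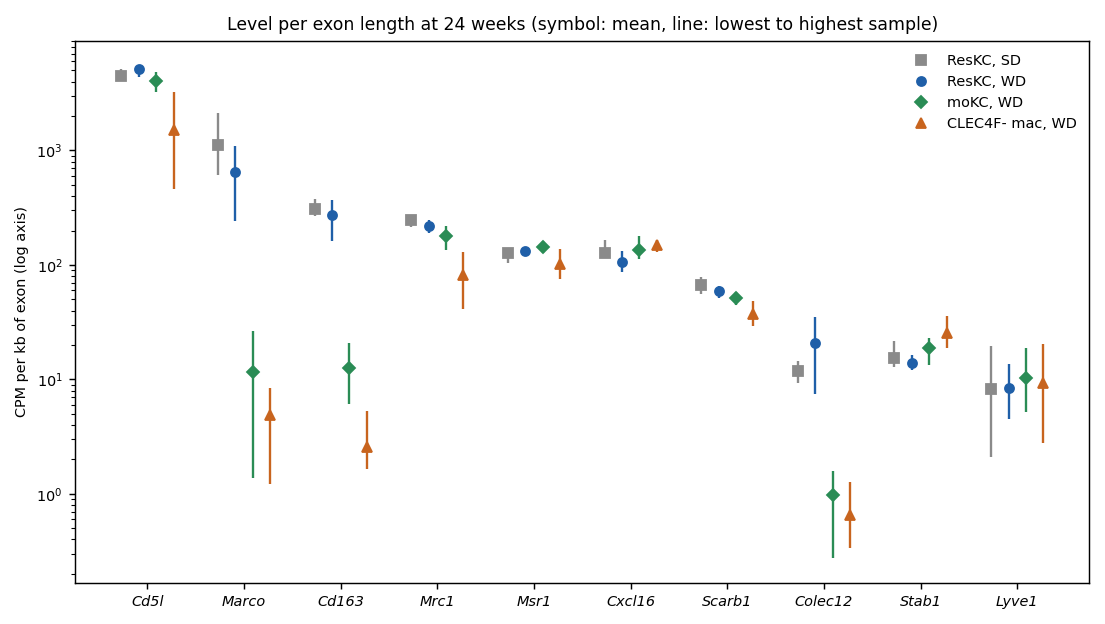
Level per kilobase of exon of the 10 genes in the 4 groups at 24 weeks, on a log axis, with the group mean as a symbol and the lowest to highest sample as a line. The group means of Marco, Cd163 and Colec12 drop to 12.6 CPM per kb or less in moKCs and CLEC4F- macs, while Cd5l is the highest gene of each group.

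When resident Kupffer cells are lost, monocytes enter the liver and some of them take on Kupffer cell features. Clearance depends on the receptors that such cells carry, so the 3 populations from livers on the WD were compared. In WD ResKCs against CLEC4F- macs at 24 weeks, 9 of the 10 genes were called at an adjusted p under 0.05 in edgeR's quasi-likelihood test, adjusting after Benjamini and Hochberg over all 13421 genes; every adjusted p given for a comparison is from that test unless another is named. The 7 higher in ResKCs were Marco, Cd163, Colec12, Cd5l, Mrc1, Scarb1 and Msr1, and the 2 lower were Stab1 and Cxcl16. Among all genes tested, 17% were called higher in ResKCs and 16.1% lower. The median log2 fold change of the 10 genes was 1.05, against -0.02 for all genes tested. The 10 were chosen with earlier results of these data known, so setting them beside all genes is a description and no test. In WD ResKCs against moKCs 3 of the 10 were called, Marco, Cd163 and Colec12, all higher in ResKCs, where 2% of all genes were called higher and 0.991% lower. The median log2 fold change there was 0.25 for the 10 genes and -0.02 for all genes. Both comparisons use the same ResKC samples. Marker lists differed too between ResKCs and CLEC4F- macs. Called lower in ResKCs were 4 of the 5 monocyte genes tested (median log2 fold change -5.07), 5 of 5 lipid-associated macrophage genes (-2.73), 4 of 4 B cell genes (-2.16), 2 of 4 dendritic cell genes (-2.21), 4 of 10 stellate cell genes (-0.48, with 1 higher) and 3 of 10 immediate-early and heat-shock genes (-0.95). Called higher were 8 of 10 Kupffer cell genes (1.64, with 1 lower) and 5 of 6 macrophage genes (0.81), while 0 of 10 hepatocyte genes and 0 of the 2 neutrophil genes tested were called. Among those 8 are the gate genes Clec4f and Timd4.

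The 3 genes that set ResKCs apart from both other populations are a pair of bacterial and particle receptors, Marco and Colec12, and the haemoglobin receptor Cd163. Marco, at chr1:120474538-120505024, had 462, 1177 and 2116 CPM as the lowest, median and highest of 6 WD ResKC samples. The 5 moKC samples had 2.65, 14.6, 24.4, 51.4 and 18.6 CPM, and the 6 CLEC4F- mac samples had 2.33, 9.45 and 16.4 CPM as lowest, median and highest. No ResKC sample came within reach of the other populations, and the moKC and CLEC4F- mac samples overlapped each other. In a bulk sample, fewer cells that express a gene and less RNA of it per cell cannot be told apart. The log2 fold change of Marco was 7.06 (95% confidence interval 5.6 to 8.53, adjusted p = 2.525e-09) over CLEC4F- macs and 5.81 (4.32 to 7.29, adjusted p = 2.83e-06) over moKCs. Within the first and second naming schemes the difference from moKCs was 7.21 and 5.27, and that from CLEC4F- macs 7.48 and 6.72.

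Cd163, at chr6:124304656-124330527, had 880, 1616 and 2007 CPM as the lowest, median and highest of the WD ResKC samples. The moKC samples had 113, 64.3, 33.5, 94.5 and 38.3 CPM, and the CLEC4F- mac samples 9.01, 11.6 and 28.9 CPM as lowest, median and highest. The 3 populations did not overlap: each moKC sample lay under each ResKC sample and over each CLEC4F- mac sample, and the highest CLEC4F- mac sample was replicate 4. Cd163 differed by 6.73 (6.07 to 7.39, adjusted p = 5.64e-17) over CLEC4F- macs and 4.44 (3.80 to 5.07, adjusted p = 3.52e-12) over moKCs. Within the first and second naming schemes it was 4.3 and 4.47 over moKCs, and 7.27 and 6.2 over CLEC4F- macs.

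Colec12 encodes collectin placenta 1, a class A receptor that ends in a lectin domain. It had 65.7, 191 and 306 CPM as the lowest, median and highest of the WD ResKC samples. The moKC samples had 13.8, 11, 2.4, 8.43 and 7.46 CPM, and the CLEC4F- mac samples 2.91, 5.07 and 11.1 CPM as lowest, median and highest. Again each ResKC sample lay over each sample of the other populations, which overlapped each other. Colec12 differed by 5.02 (4.33 to 5.71, adjusted p = 6.19e-13) over CLEC4F- macs and 4.40 (3.69 to 5.12, adjusted p = 1.11e-10) over moKCs. By naming scheme, first and second, these were 5.38 and 4.72, and 3.89 and 4.91. Colec12 is also known from stromal and endothelial cells, which a sort for macrophages should remove. The part that RNA of such cells has in its level was not tested. With group means removed its closest gene over the 35 samples was the stellate cell gene Pdgfrb (r = 0.764). Pdgfrb was low, at 3.94 ± 1.49 CPM (n = 6) in WD ResKCs at 24 weeks and 0.0749 CPM in the lowest moKC sample. The 10 stellate cell genes as a list had a median log2 fold change of -0.68 in WD ResKCs over moKCs, with 2 of 10 positive, 1 called higher and 2 lower, and one of -0.37 for the diet at 24 weeks, with 1 called lower.

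Among all 13421 genes, Marco, Cd163 and Colec12 ranked 5, 14 and 15 by log2 fold change of ResKCs over moKCs. Timd4, the gate gene, had a log2 fold change of 5.88 there. Relative to the ResKC mean, moKCs had 1.8% of Marco, 4.62% of Cd163 and 4.7% of Colec12, beside 93.5% of the complement receptor gene Vsig4 and 78% of Clec4f. CLEC4F- macs had 0.754% of Marco, 0.941% of Cd163, 3.09% of Colec12, 0.971% of Vsig4 and 13.6% of Clec4f. Replicate 4 raised that last share, with 5488 CPM of Clec4f beside 294 to 1539 CPM in the other samples. Of the 10 Kupffer cell genes as a list, 8 had a positive log2 fold change of ResKCs over moKCs (median 0.25). In that comparison 1 of them was called higher, the gate gene Timd4, and 1 lower. Marco, Cd163 and Colec12 were called higher in ResKCs over moKCs and over CLEC4F- macs in each alternative setting and with each sample of the compared groups left out in turn.

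**Figure D2:**
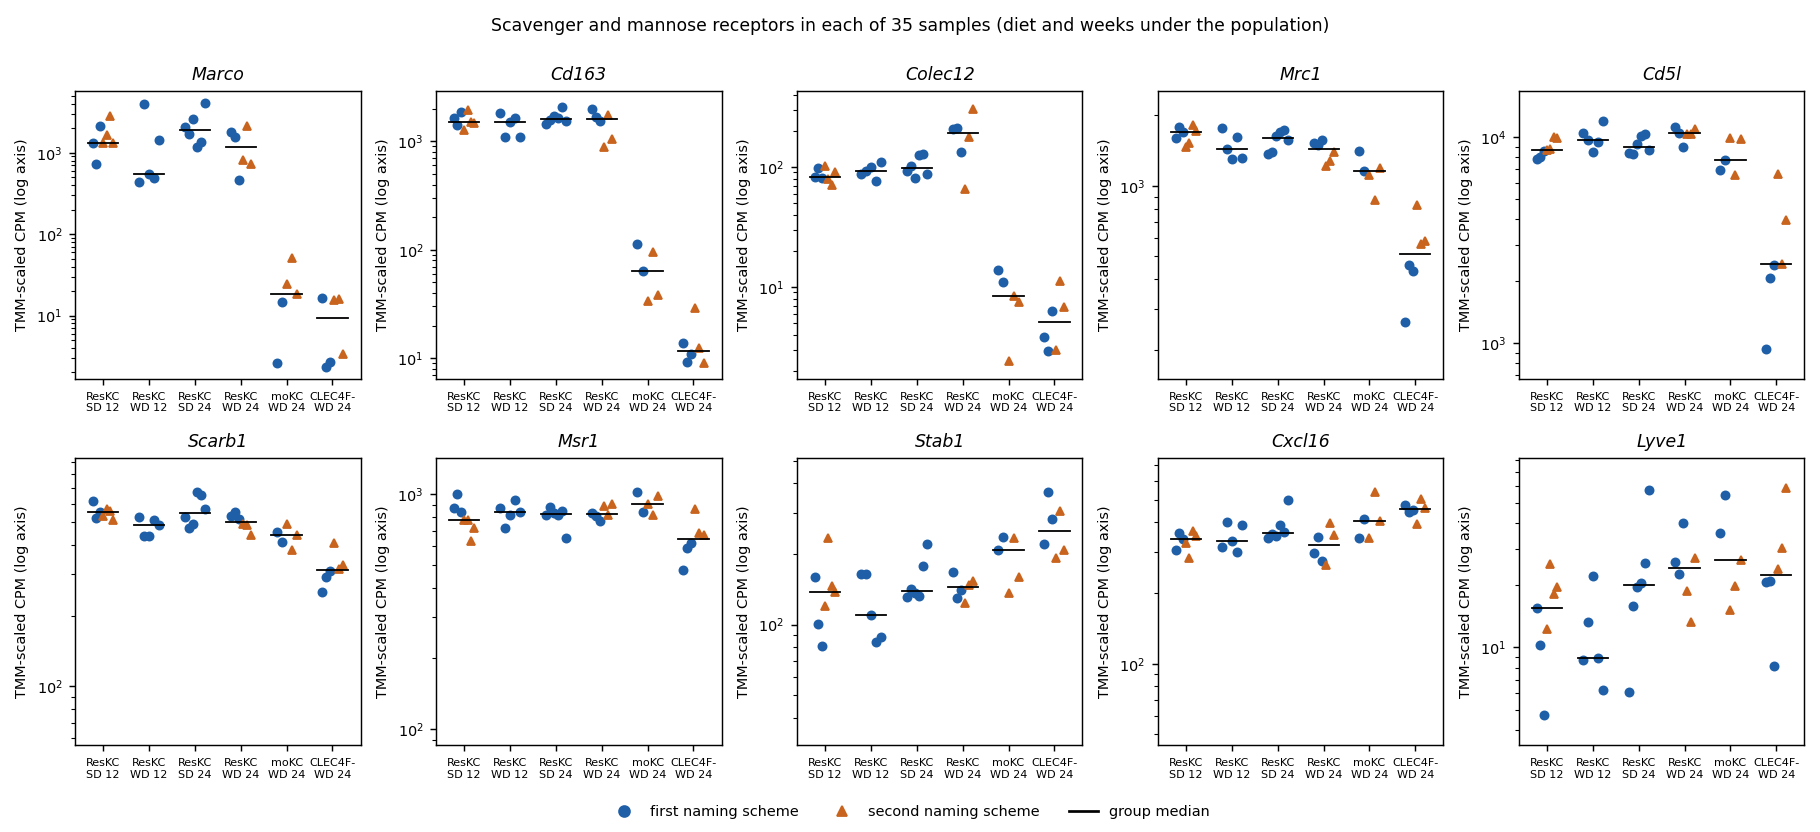
CPM of each of the 10 genes in each of the 35 samples, on log axes, by population, diet and weeks; circles and triangles mark the first and second naming scheme, and the line is the group median. Marco, Cd163 and Colec12 fall between the WD ResKCs and the moKCs with no overlap, Mrc1, Cd5l, Scarb1 and Msr1 are lowest in CLEC4F- macs, and Stab1 and Cxcl16 are higher there than in WD ResKCs.

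The windows before the start sites of Marco and Cd163 are shown because their transcripts are 2 of the 3 that are high in ResKCs alone, and those of Cd5l and Mrc1 because they are the members with the widest difference among those that moKCs and ResKCs both hold. RefSeq's promoter table on GRCm38.p6 had an entry for 5 of the 10 genes, Marco, Cd163, Mrc1, Stab1 and Cd5l. The 250 bases before each start were read 5′ to 3′ on the strand of the gene: Marco chr1:120505025-120505274 (minus strand), Cd163 chr6:124304401-124304650 (plus strand), Cd5l chr3:87357631-87357880 (plus strand) and Mrc1 chr2:14229164-14229413 (plus strand). Capitals mark matches, on either strand, to TGCTGA, part of the element bound by MAF proteins, and to GAGGAA, a core of PU.1 sites. The nuclear receptor motif AGGTCA was searched too and was in none of the 5 windows. The motifs do not overlap each other in these windows.
Marco: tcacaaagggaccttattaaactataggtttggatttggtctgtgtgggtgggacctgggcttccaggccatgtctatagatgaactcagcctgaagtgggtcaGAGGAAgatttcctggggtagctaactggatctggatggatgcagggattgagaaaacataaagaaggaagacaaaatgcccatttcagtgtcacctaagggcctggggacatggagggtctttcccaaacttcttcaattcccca
Cd163: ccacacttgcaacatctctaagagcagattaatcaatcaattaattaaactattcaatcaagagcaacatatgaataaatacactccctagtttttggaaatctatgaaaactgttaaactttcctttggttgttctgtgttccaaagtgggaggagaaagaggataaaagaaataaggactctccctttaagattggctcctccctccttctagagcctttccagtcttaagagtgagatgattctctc
Cd5l: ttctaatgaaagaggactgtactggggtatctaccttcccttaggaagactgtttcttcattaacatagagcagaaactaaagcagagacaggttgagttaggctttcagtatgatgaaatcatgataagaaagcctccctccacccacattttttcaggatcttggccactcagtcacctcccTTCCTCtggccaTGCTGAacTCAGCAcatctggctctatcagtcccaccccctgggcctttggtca
Mrc1: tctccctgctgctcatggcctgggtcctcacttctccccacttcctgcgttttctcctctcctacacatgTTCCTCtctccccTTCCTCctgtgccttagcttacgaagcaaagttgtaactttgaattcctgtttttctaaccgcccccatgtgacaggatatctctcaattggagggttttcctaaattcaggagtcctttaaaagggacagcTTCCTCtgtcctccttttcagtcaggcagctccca
Marco had 1 match to GAGGAA, 146 bases before the start, and Cd163 had none to any of the 3 motifs. Mrc1 had 3 matches to TTCCTC, the other strand of GAGGAA. Cd5l had 1 match to TTCCTC and 2 to the MAF motif, TGCTGA at 54 and TCAGCA at 46 bases before the start, which face each other across 2 bases. Stab1 had 1 match to TGCTGA and 1 to GAGGAA. Of 32851 promoter windows of 300 bases, 19.5% hold the MAF motif, 28.3% the PU.1 core and 16.3% the nuclear receptor motif on either strand. The facing pair seen in Cd5l, looked for after that window had been read, is in 2 of the 32851 windows, those of Cd5l and Gm33479. A match describes letters and shows no binding. In the GENCODE annotation the last 22 bases of the Mrc1 window belong to its first exon, and the first 28 bases of the Cd163 window to the RNA gene Gm25311 on the other strand.

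Cd5l, Mrc1, Scarb1 and Msr1 form another pattern: high in both kinds of Kupffer cell and lower in CLEC4F- macs. Cd5l, at chr3:87357881-87371073, had 9007, 10450 and 11283 CPM as the lowest, median and highest of the WD ResKC samples. The moKC samples had 6946, 7733, 9974, 6548 and 9836 CPM, and the CLEC4F- mac samples had 940, 2066, 2404, 6604, 2431 and 3948 CPM. Every ResKC sample lay over every CLEC4F- mac sample, and the highest of the latter, 6604 CPM, was replicate 4, the sample with the most Kupffer cell RNA. Its log2 fold change over CLEC4F- macs was 1.76 (1.29 to 2.24, adjusted p = 3.47e-07), and 2.14 without that sample. Within the first naming scheme it was 2.5 and within the second 1.29. Over moKCs the difference was 0.34 (-0.15 to 0.83) and was not called.

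Mrc1, at chr2:14229392-14332057, had 1211, 1441 and 1561 CPM as the lowest, median and highest of the WD ResKC samples. In moKCs it had 1408, 1160, 1108, 866 and 1189 CPM. In CLEC4F- macs the lowest, median and highest were 263, 512 and 832 CPM, the last again in replicate 4. ResKCs and CLEC4F- macs did not overlap, and 3 of 6 ResKC samples lay over all moKC samples. Over moKCs the difference was 0.3 (-0.03 to 0.62), not called. Over CLEC4F- macs, where Mrc1 was called, it was 1.43 (1.12 to 1.74, adjusted p = 6.67e-09). There it was 1.97 within the first naming scheme and 0.97 within the second.

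Scarb1 had 439 to 554 CPM in WD ResKCs, 381 to 491 CPM in moKCs and 251 to 410 CPM in CLEC4F- macs. Its 6 ResKC samples all lay over the CLEC4F- mac samples, at a log2 fold change of 0.66 (0.47 to 0.85, adjusted p = 8.91e-07), and at 0.9 and 0.42 within the first and second naming schemes. Msr1 had 773 to 907 CPM in WD ResKCs, 812 to 1024 CPM in moKCs and 477 to 866 CPM in CLEC4F- macs. Its groups overlapped, with 2 of 6 ResKC samples over all CLEC4F- mac samples, and the log2 fold change was 0.36 (0.15 to 0.58, adjusted p = 0.00672). Within the second naming scheme alone Msr1 was not called, at 0.24 (adjusted p = 0.2125). For neither gene was a difference between ResKCs and moKCs called, at 0.20 (0.01 to 0.40) for Scarb1 and -0.12 (-0.35 to 0.10) for Msr1.

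Stab1 and Cxcl16 ran the other way, lower in ResKCs than in CLEC4F- macs. Stab1, the gene of stabilin-1, which clears acetylated lipoprotein and matrix proteins, had 124, 144 and 168 CPM as the lowest, median and highest of the WD ResKC samples. It had 208, 237, 136, 234 and 159 CPM in moKCs, and 193, 250 and 368 CPM as the lowest, median and highest of the CLEC4F- macs. All 6 ResKC samples lay under all CLEC4F- mac samples, and the moKC samples overlapped both. ResKCs differed from CLEC4F- macs by -0.86 (-1.29 to -0.44, adjusted p = 0.00134). Within the second naming scheme alone it was -0.73 and not called (adjusted p = 0.0837). Over moKCs it was -0.43 (-0.87 to 0.00), not called.

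Cxcl16 had 263, 322 and 398 CPM as the lowest, median and highest of the WD ResKC samples, 342, 415, 344, 539 and 405 CPM in the moKC samples, and 392, 457 and 502 CPM as the lowest, median and highest of the CLEC4F- macs. Of the 6 ResKC samples 5 lay under all CLEC4F- mac samples. Against CLEC4F- macs the difference was -0.5 (-0.72 to -0.27, adjusted p = 6.03e-04). Within the second naming scheme alone it was -0.42 and not called (adjusted p = 0.150). Over moKCs it was -0.35 (-0.58 to -0.11, adjusted p = 0.100), which passed the limit in 1 case, with replicate 5 of the WD ResKCs left out (-0.42, adjusted p = 0.0498). Exons of Cxcl16 overlap those of Zmynd15 on the opposite strand, as those of Stab1 do with Nt5dc2, and since the strand setting of the counting is not given, reads in these stretches cannot be assigned to 1 gene.

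Lyve1 was the lowest of the 10 genes per kb in ResKCs and was not called between any of the populations. The WD ResKC samples had 13.2, 24.2 and 40.1 CPM as lowest, median and highest, the moKC samples 35.8, 54.5, 15.1, 19.7 and 26.5 CPM, and the CLEC4F- macs 8.14, 22.4 and 59 CPM as lowest, median and highest. The samples of the 3 populations overlapped throughout. ResKCs differed by -0.14 (-1 to 0.73) over CLEC4F- macs and -0.30 (-1.21 to 0.60) over moKCs. Within the first naming scheme the difference from CLEC4F- macs was 0.82 and within the second -0.94, and neither was called.

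**Figure D3:**
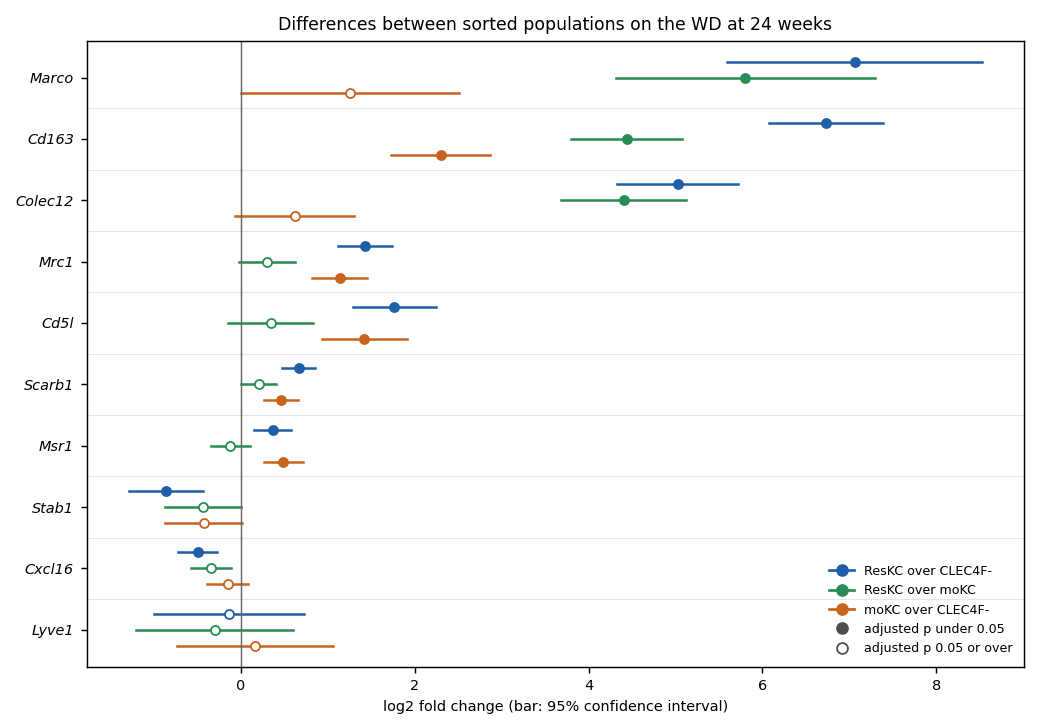
Log2 fold change between each pair of the 3 populations among cells of WD livers at 24 weeks for the 10 genes, with 95% confidence intervals as bars and filled circles for an adjusted p under 0.05. Marco, Cd163 and Colec12 differ from moKCs by 4.40 to 5.81, whereas the other 7 genes lie between -0.43 and 0.34 there.

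The moKCs and CLEC4F- macs are both held to come from monocytes, and the gate parts them by a protein of Kupffer cells. Neither gate shows how uniform the sorted cells were, and replicate 4 of the CLEC4F- macs held the most Kupffer cell RNA of its group. In moKCs against CLEC4F- macs, 5 of the 10 genes were called, all higher in moKCs: Cd163, Cd5l, Mrc1, Msr1 and Scarb1. Of all genes tested 9.34% were called higher in moKCs and 7.09% lower, and the median log2 fold change was 0.55 for the 10 genes and 0.01 for all genes. Marker lists differed here too. Called lower in moKCs were 4 of the 5 monocyte genes tested (median log2 fold change -4.64) and 5 of 5 lipid-associated macrophage genes (-2.23). The same held for 2 of 4 B cell genes (-1.84) and 2 of 4 dendritic cell genes (-1.84). Called higher were 7 of 10 Kupffer cell genes (1.11) and 4 of 6 macrophage genes (0.56). Among those 7 is Clec4f, whose protein parts the gates. Cd163 had the widest difference, 2.30 (1.73 to 2.86, adjusted p = 6.02e-07), with all 5 moKC samples over the CLEC4F- mac samples. Cd5l differed by 1.42 (0.93 to 1.91, adjusted p = 5.25e-05) and Mrc1 by 1.13 (0.81 to 1.46, adjusted p = 3.83e-06), with 4 and 5 of 5 moKC samples over all CLEC4F- mac samples. Msr1 differed by 0.49 and Scarb1 by 0.46, with overlap. Marco, at 1.26 (-0.00 to 2.51, adjusted p = 0.185), and Colec12, at 0.62 (-0.06 to 1.3, adjusted p = 0.241), were not called, nor were Stab1, at -0.43 (-0.87 to 0.01, adjusted p = 0.200), and Cxcl16, at -0.15 (-0.39 to 0.08, adjusted p = 0.449).

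The number of calls between moKCs and CLEC4F- macs stayed at 5 with the naming scheme as a covariate and differed when each scheme was tested alone. Within the second scheme, with 3 samples of each population, 1 of the 10 genes was called, Mrc1 at 0.68 (adjusted p = 0.0379). Cd163 there was 1.72 (adjusted p = 0.0689) and Cd5l 1.02 (adjusted p = 0.0627). Within the first scheme, with 2 moKC and 3 CLEC4F- mac samples, 6 were called, among them Colec12 at 1.5 (adjusted p = 0.00103); in the second scheme Colec12 was -0.19. Replicate 4 of the CLEC4F- macs carries the second scheme, and scheme and choice of samples cannot be told apart here.

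The WD loads the liver with fat and cholesterol, and several scavenger receptors bind lipoproteins. ResKCs of both diets were compared, which carry the same gate proteins. At 24 weeks edgeR's quasi-likelihood test called 0 of the 10 genes, where 4.84% of all genes were called higher on the WD and 3.87% lower. At an unadjusted p under 0.05 there were 2, Colec12 and Cxcl16, and 3331 of all 13421 genes; DESeq2 called 0 and limma-voom 1. The median log2 fold change was -0.14 for the 10 genes and 0.00 for all genes.

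Colec12 came nearest to the limit. The 6 SD samples at 24 weeks had 92.3, 103, 80.4, 125, 128 and 87.0 CPM, and the 6 WD samples had 206, 211, 133, 65.7, 177 and 306 CPM. Of the WD samples 5 lay over all SD samples, and replicate 4, at 65.7 CPM, lay under all of them. The log2 fold change was 0.84 (0.27 to 1.41, adjusted p = 0.0542). Without replicate 4 of the WD samples it was 1.01 (adjusted p = 0.0169), past the limit. It also passed in limma-voom at 0.72 (adjusted p = 0.0438), with library size alone for scaling at 0.92 (adjusted p = 0.029), within the first naming scheme at 0.84 (adjusted p = 0.0176), and with the level of sinusoidal endothelium genes as a covariate at 1.05 (adjusted p = 0.0138). In the other alternatives, among them DESeq2, Colec12 was not called.

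Cxcl16 had 344 to 500 CPM in the SD samples and 263 to 398 CPM in the WD samples at 24 weeks, at a log2 fold change of -0.25 (-0.48 to -0.03, adjusted p = 0.144). The 8 remaining genes had adjusted p-values of 0.267 or more, with log2 fold changes from -0.80 for Marco to 0.18 for Cd5l. The interval for Marco, -1.91 to 0.31, is wide, since its samples scatter: the SD samples ran from 1179 to 4081 CPM and the WD samples from 462 to 2116 CPM. For Msr1, Scarb1 and Mrc1 the interval limits lay between -0.4549 and 0.2645.

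At 12 weeks the same test called 0 of the 10 genes for the WD against the SD, where 0.0373% of all genes were called, that is 5; with 1 sample left out it was 0, but for 84 without replicate 7 of the SD samples. At an unadjusted p under 0.05 there was 1 of the 10, Scarb1 at -0.20 (-0.39 to -0.01, adjusted p = 0.556), and 1172 of all genes; DESeq2 and limma-voom each called 0 of them. Whether the diet effect changes with time was tested as a contrast of its own. It called 0 of the 10, with 0.283% of all genes called, 0 of the 10 and 1886 of all genes at an unadjusted p under 0.05, and 0 of the 10 by DESeq2 and by limma-voom. The 0.283% stands for 38 genes, a number that lay between 8 and 98 with 1 sample left out. For Colec12 that difference was 0.72 (-0.08 to 1.53, adjusted p = 0.424), beside a diet effect of 0.11 at 12 weeks, so the diet effects at the 2 times were not shown to differ.

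**Figure D4:**
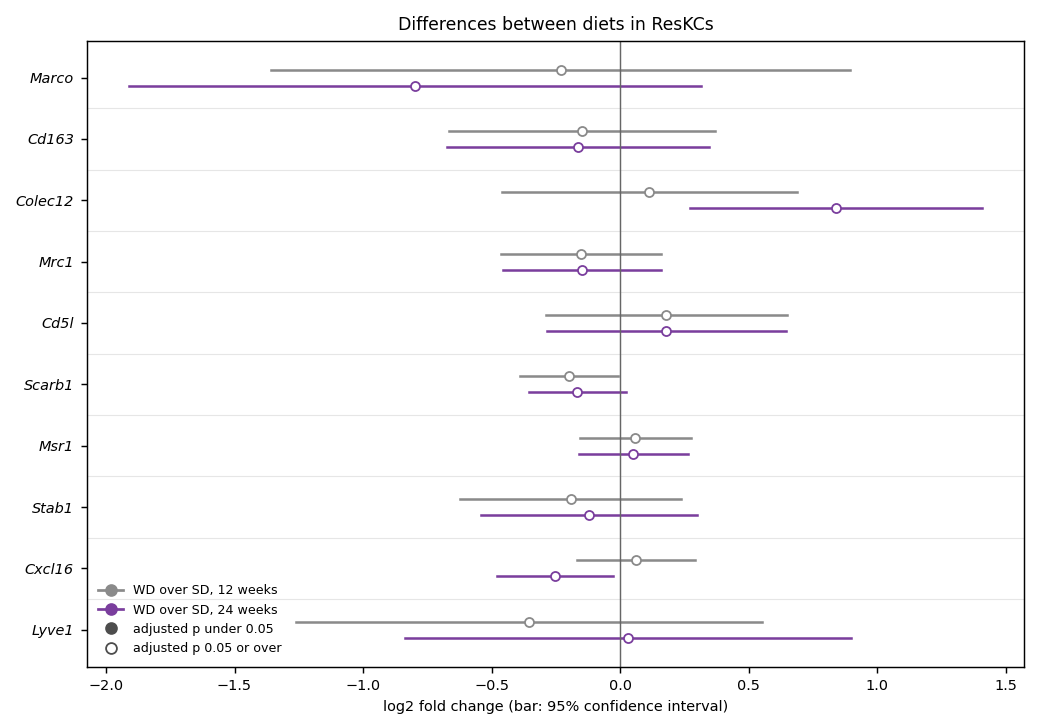
Log2 fold change of ResKCs on the WD over the SD after 12 and 24 weeks for the 10 genes, with 95% confidence intervals as bars; open circles have an adjusted p of 0.05 or over, as all have here. Colec12 at 24 weeks stands at 0.84, and Marco and Lyve1 have the widest intervals.

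Between 12 and 24 weeks on the SD, 0 of the 10 genes were called in ResKCs, as were 0% of all genes tested with edgeR's quasi-likelihood test. Unadjusted p-values under 0.05 were found for 0 of the 10 and for 1208 of all genes, and DESeq2 called 16 of all genes and limma-voom 0. With 1 sample left out the quasi-likelihood test called 0 to 9 of all genes. On the WD, 24 against 12 weeks, 0 of the 10 were called and 3.26% of all genes, that is 438, a number that lay between 126 and 489 with 1 sample left out and was 21 within the first naming scheme; at an unadjusted p under 0.05 there were 2527 of all genes and 2 of the 10, Colec12 at 0.97 (0.37 to 1.57, adjusted p = 0.0636) and Lyve1 at 1.06 (0.11 to 2.00, adjusted p = 0.204). DESeq2 called 0 and limma-voom 1, Colec12. Colec12 had 87.2, 92.6, 101, 76.5 and 110 CPM in the WD samples at 12 weeks, so that 5 of the 6 WD samples at 24 weeks lay over all of these too, and without replicate 4 of the latter it was called at 1.15 (adjusted p = 0.0287). The WD samples at 24 weeks take part in this comparison and in the diet comparison.

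Marco varied most between samples of a group. Its pooled standard deviation within groups was 1.09 on the log2 scale, larger than that of 95.2% of the genes tested, beside 0.274 for the median gene. The 5 WD samples at 12 weeks had 437, 3969, 546, 493 and 1425 CPM. Without replicate 2, the highest, the log2 fold change of the WD over the SD at 12 weeks was -1.16 in place of -0.23 and was still not called. Lyve1 came next at 0.803 and Colec12 at 0.587, whereas Scarb1 at 0.161, Msr1 at 0.185 and Cxcl16 at 0.194 varied less than the median gene.

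Lyve1 and Stab1 are also known as genes of sinusoidal endothelium, whose RNA was measured with a list of 12 genes. All 12 passed the filter and none was at 0 in any group; the most abundant in ResKCs and moKCs was Stab2, a receptor that is listed among the other scavenger receptors too. The summed level per sample ran from 481 over a median of 907 to 1237 CPM in WD ResKCs at 24 weeks, and from 860 over 1327 to 2397 CPM in SD ResKCs of that time. It was 2240, 1603, 557, 756 and 896 CPM in moKCs, and ran from 563 over 700 to 1043 CPM in CLEC4F- macs. Across the 35 samples, with group means removed, Lyve1 had a Pearson r of 0.822 and a Spearman rho of 0.887 with the mean level of this list, and Stab1 0.677 and 0.645. The other 8 genes had r between -0.255 and 0.441. These values are a description over samples that share their libraries. In WD against SD ResKCs at 24 weeks 2 of the 12 endothelium genes were called lower and 0 higher, and their median log2 fold change was -0.86.

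With this list as a covariate Lyve1 was called in that diet comparison, at 1.05 (adjusted p = 0.0149) in place of 0.03, and on the WD at 24 against 12 weeks at 1.20 (adjusted p = 0.0142). Stab1 was then called lower in moKCs than in CLEC4F- macs, at -0.57 (adjusted p = 0.0147) in place of -0.43. In WD ResKCs against CLEC4F- macs, where Stab1 was lower, the 12 endothelium genes had a median log2 fold change of -0.30, with 2 of 12 positive; 1 was called, Stab2, which was higher at 1.54. Against moKCs their median was -0.80, with 1 of 12 positive, 4 at an unadjusted p under 0.05 and 0 called. In moKCs against CLEC4F- macs the median was 0.53, with 12 of 12 positive and 1 called. A sort for macrophages should remove endothelial cells, and the part that endothelial RNA has in the levels of Lyve1 and Stab1 was not tested further. Other marker lists moved with the diet at 24 weeks as well. All 5 lipid-associated macrophage genes were called higher on the WD (median log2 fold change 2.53), their sum being 432 ± 280 CPM (n = 6) on the WD and 63.6 ± 24.2 CPM (n = 6) on the SD. Of the 10 Kupffer cell genes 3 were called lower and 0 had a positive log2 fold change. Of the 10 immediate-early and heat-shock genes 7 were called lower, with a summed level of 2264 ± 1384 CPM (n = 6) on the WD and 8357 ± 3973 CPM (n = 6) on the SD, Dusp1 being the most abundant. The 10 hepatocyte genes, with Alb the most abundant, had 1787 ± 910 CPM (n = 6) on the WD and 964 ± 378 CPM (n = 6) on the SD, and 1 of them was called higher. With the immediate-early or the hepatocyte list as a covariate 0 of the 10 receptor genes were called in that comparison.

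**Figure D5:**
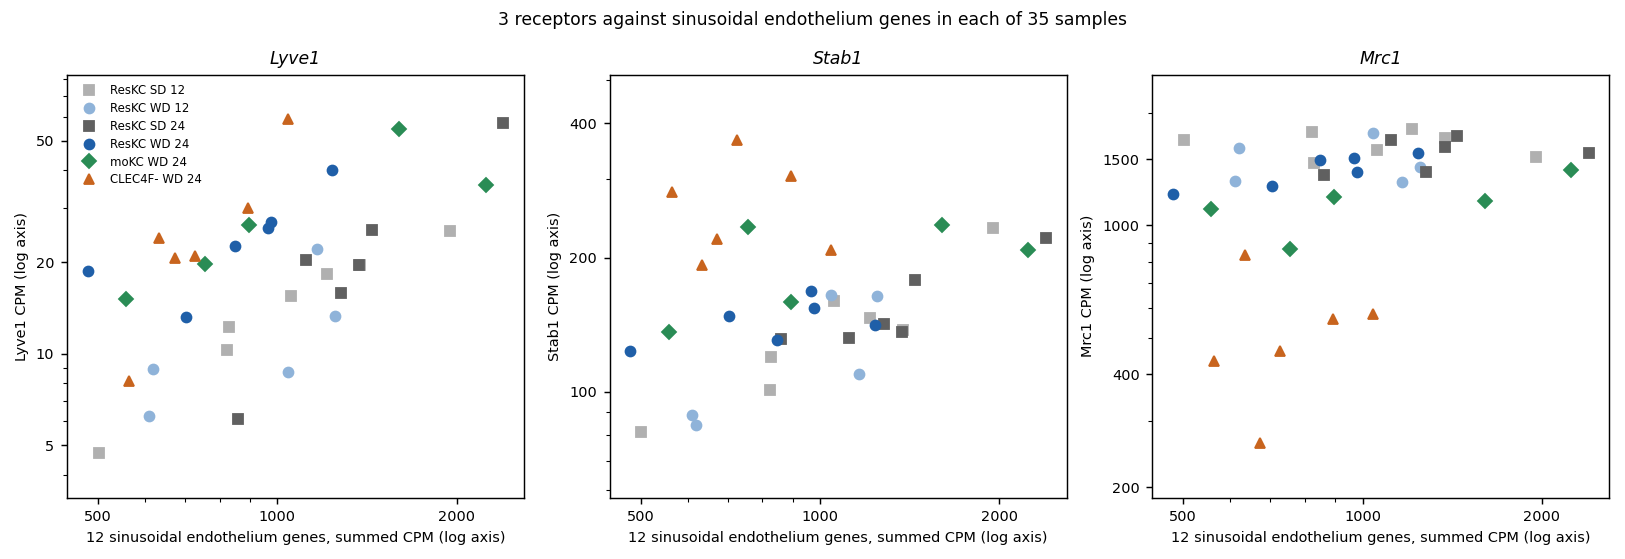
CPM of Lyve1, Stab1 and Mrc1 in each of the 35 samples against the summed CPM of 12 sinusoidal endothelium genes, on log axes, with symbols for the 6 groups. With the mean log2 level of these genes, in place of the sum plotted, r within groups was 0.822 for Lyve1, 0.677 for Stab1 and 0.228 for Mrc1.

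A list of 19 other scavenger and mannose receptors held 13 genes that passed the filter; Megf10 had no count in any group. In WD ResKCs against CLEC4F- macs 5 of them were called higher and 3 lower, beside 17% and 16.1% of all genes, and their median log2 fold change was 0.41. The widest rises were those of Stab2, the hyaluronan scavenger receptor, at 1.54 (adjusted p = 9.25e-09) and Scarb2, a lysosomal receptor, at 0.79 (adjusted p = 2.74e-08); the lysosomal glycoprotein Cd68 was called at 0.41. The lower ones were Clec7a, the receptor for fungal glucans, at -1.07 (adjusted p = 6.40e-05), Olr1, the receptor for oxidised low-density lipoprotein, at -3.36 (adjusted p = 3.37e-04), and Ly75 at -3.10. Olr1 was low throughout, at 0.834 ± 0.701 CPM in WD ResKCs (n = 6), 2.41 ± 1.38 CPM in moKCs (n = 5) and 8.65 ± 3.23 CPM in CLEC4F- macs (n = 6). Against moKCs 1 of the 13 was called, Cd68 higher in ResKCs at 0.38 (adjusted p = 0.00502), beside 2% of all genes higher and 0.991% lower, and in moKCs against CLEC4F- macs 3 were higher (Stab2, Scarb2 and Cd44) and 1 lower (Clec7a), beside 9.34% and 7.09% of all genes.

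Under the diet at 24 weeks 2 of these 13 genes rose on the WD and 0 fell, where 4.84% of all genes were called higher and 3.87% lower. Cd36, the fatty acid and oxidised lipoprotein receptor, had 156, 284 and 402 CPM as the lowest, median and highest of the SD samples and 519, 649 and 885 CPM in the WD samples. The groups did not overlap, and the log2 fold change was 1.19 (adjusted p = 4.08e-05). Clec7a rose by 0.66 (adjusted p = 0.0310), with 5 of 6 WD samples over all SD samples.

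Genes that work with the 10 receptors were taken from 4 short lists, of 15 genes in all, 14 of which passed the filter. Of the haemoglobin and haem genes, Hmox1, which breaks down haem taken up through CD163, had 2321 ± 532 CPM (n = 6) in WD ResKCs, 1038 ± 261 CPM (n = 5) in moKCs and 740 ± 296 CPM (n = 6) in CLEC4F- macs. It was higher in ResKCs by 1.16 (adjusted p = 2.72e-04) over moKCs and by 1.65 (adjusted p = 1.23e-08) over CLEC4F- macs, with all 6 ResKC samples over all samples of either population. Slc40a1, the iron exporter ferroportin, was higher than in CLEC4F- macs by 1.61 in ResKCs and by 1.1 in moKCs. On the WD at 24 weeks Hp and Hpx, which encode haptoglobin and haemopexin and are chiefly hepatocyte products, rose by 1.71 and 1.46.

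Of the adaptor and endocytic genes, Dab2 and Gipc1 were higher in ResKCs than in CLEC4F- macs, by 0.65 and 0.54, and Gipc1 also than in moKCs, by 0.41. Of the cholesterol efflux genes Apoe was lower in ResKCs than in moKCs, at -0.53 (adjusted p = 0.0330). For Cxcl16, the receptor gene Cxcr6 stood at 0.531 CPM in WD ResKCs and at 2.16 CPM in CLEC4F- macs, a log2 difference of -2 (adjusted p = 0.0341). Cxcr6 is also a gene of T and NK cells, and both of the 2 T and NK cell genes that passed the filter were called lower in ResKCs too, the list of 4 summing to 1.7 ± 0.787 CPM (n = 6) and 8.74 ± 4.34 CPM (n = 6). The sheddase gene Adam17 was higher in ResKCs by 0.29. In WD ResKCs against CLEC4F- macs 5 of the 14 were higher and 1 lower, against moKCs 2 were higher and 1 lower, in moKCs against CLEC4F- macs 2 were higher, and for the diet at 24 weeks 2 were higher. The shares of all genes called higher and lower were 17% and 16.1%, 2% and 0.991%, 9.34% and 7.09%, and 4.84% and 3.87% in the same order.

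The genes with the most similar profile over the 35 samples were found by Pearson r of log2 CPM. For Marco they were Timd4 (r = 0.955), Snrpn and C2, and for Cd163 Snrpn (r = 0.976), Ric3 and C2. Colec12 was closest to Abhd11os (r = 0.958), Snrpn and Timd4. For Mrc1 they were Cdh5 (r = 0.977), Slc16a9 and Agmo, for Cd5l Sh3bgrl2 (r = 0.969), Csrp1 and Clec4f, and for Scarb1 Slc40a1 (r = 0.959), Csf1r and Jup. Stab1 was closest to Nrp2 (r = 0.879), Msr1 to Fabp7 (r = 0.848), Lyve1 to F2r (r = 0.852) and Cxcl16 to Zmynd15 (r = 0.841), the gene it shares exon bases with. Timd4 and Clec4f are genes of the sort gate. With group means removed, r was 0.394 for Marco and Timd4, 0.11 for Cd163 and Snrpn, and 0.556 for Colec12 and Abhd11os. It stayed at 0.735 or more for the closest gene of each of the other 7, among them 0.821 for Lyve1 and F2r and 0.864 for Mrc1 and Cdh5, and it was 0.909 for Cd5l and Clec4f.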

How the data were processed

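RNA-seq counts of 35 samples of sorted liver macrophages were used. The deposited values are the authors' counts per gene symbol: reads were aligned to mm10 with HISAT2 2.2.0 and counted with featureCounts 2.0.0. The annotation and the strand setting are not given in the sources used. The 10 members and the other lists were chosen with earlier results of these data known.

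The filter kept the 13421 of 54735 genes that exceeded 1 CPM in 5 samples or more. edgeR 4.0.16 in R 4.3.3 fitted 1 quasi-likelihood model of 6 group means over all 35 samples with TMM factors, with Benjamini-Hochberg adjustment over every gene kept; a gene was called at an adjusted p under 0.05. There were 8 comparisons: the diets in ResKCs at 12 and at 24 weeks, the 3 pairs of populations on the WD at 24 weeks, 24 against 12 weeks on each diet, and the difference of the diet effects. Log2 CPM used a prior count of 2. Exon lengths are from GENCODE M21. Genes were named as members, as called genes of the lists, or as the 3 genes with the highest Pearson r to a member. A few were named as the most abundant of a list, Megf10 for having no count, and Gm33479 and Gm25311 from the promoter windows. Gate genes were named too, and Nt5dc2, Pdgfrb and Vsig4 were chosen after their values were seen.

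Alternatives were DESeq2 1.42.0, limma-voom from limma 3.58.1, scaling by library size alone, no filter, a robust fit, the compared groups alone, the replicate number as a block, the naming scheme as a covariate, each scheme alone, 3 marker lists as covariates, an added limit on the fold change, and each sample left out in turn. The tests were first run on simulated counts with known changes.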

Additional observations from a re-analysis of the deposited data

Results flagged for a closer look

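Of the 60 sets of values that 10 genes in 6 groups make, 3 held a sample far from the others of its group, and 3 would be so by chance at this limit. The measure is the gap to the nearest other sample divided by the range of the group, both taken on log2 CPM; the levels below are in CPM. Cd163 in CLEC4F- macs had a high value in replicate 4, with 28.9 CPM beside 13.7 CPM in the next sample (0.644 of the range). Msr1 in SD ResKCs at 24 weeks had a low value in replicate 6, with 653 CPM beside 818 CPM (0.749 of the range). Cxcl16 had a high value in that same sample, with 500.2 CPM beside 389 CPM (0.671 of the range).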

How the results depend on the processing

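The number of receptor genes called for WD ResKCs over moKCs was 3 in each of 14 settings, and 3 to 4 with 1 sample left out. For WD ResKCs over CLEC4F- macs it was 9, with 5 once a log2 fold change over 1 is required and 6 within the second naming scheme. With any 1 sample left out it was 9 there. For moKCs over CLEC4F- macs it was 5, with 3 under the fold limit and 1 within the second scheme (3 samples of each population), and 6 within the first scheme and with the endothelium covariate. For WD against SD ResKCs at 24 weeks it was 0, with 1 in limma-voom, 1 with library size alone, 1 within the first scheme and 2 with the endothelium covariate, and it ran from 0 to 1 with 1 sample left out. For WD ResKCs at 24 against 12 weeks it was 0, with 1 in limma-voom, 1 within the first scheme, 1 with the hepatocyte covariate, 1 with the immediate-early covariate and 2 with the endothelium covariate, and it ran from 0 to 1 with 1 sample left out. The cause of these shifts was not tested. In the other 3 comparisons it was 0 in every setting.

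Pairing samples by replicate number as a block gave 9, 3 and 5 in the population comparisons and 0 in the others. The mean correlation of such pairs lay between -0.112 and 0.117. It was 0.117 for WD ResKCs with CLEC4F- macs, where ResKC replicates 1, 2, 3, 5 and 6 each matched their own number best. With moKCs only ResKC replicate 2 did so, and ResKC replicate 4 was closest to moKC replicate 3 (0.311). Which samples share a mouse is not given in the sources used. The block may thus pair the wrong samples, and the main fit treats all samples as independent. No member called in the fit of all 35 samples changed sign in any setting; Colec12 in moKCs over CLEC4F- macs, called within the first scheme alone, did. The second scheme could not be run alone for the diet and time comparisons, since a group in each holds no such sample.

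The count over all genes moved more. For the diet at 24 weeks it was 1169, with 450 under the fold limit, 501 within the first scheme and 469 with the immediate-early covariate. For ResKCs over CLEC4F- macs it was 4433, with 1399 under the fold limit and 1669 within the second scheme; over moKCs 401, with 186, and 95 and 62 within the first and second scheme. For moKCs over CLEC4F- macs it was 2204, with 678 and 325. For the diet at 12 weeks it was 5, with 44 in DESeq2, 86 with the block and 0 to 84 with 1 sample left out. Leaving 1 sample out gave 829 to 1208 for the diet at 24 weeks, 3810 to 4614 for ResKCs over CLEC4F- macs, 232 to 522 for ResKCs over moKCs, 1635 to 2592 for moKCs over CLEC4F- macs and 126 to 489 for the WD at 24 against 12 weeks. For the contrast of the diet effects it gave 8 to 98 around 38, while the first scheme alone gave 0, DESeq2 187 and the endothelium covariate 117. With library size alone the median log2 fold change of all genes in ResKCs over CLEC4F- macs moved from -0.02 to -0.14. At 3 counts per sample, levels under 0.198 to 0.259 CPM cannot be told from 0; no member came near that.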
